A study of Mus musculus with 10 samples.

Results

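Interferon-stimulated genes were examined in whole lung of p53-null mice and of wild-type mice, measured on Agilent 1-colour expression arrays. The genes were chosen from a list of 44 genes known to be induced by type I or type II interferon, and a probe was assigned to a gene when its name or accession resolved to that gene's symbol. Of the 44 genes, 42 had a probe, 65 probes in all, and 41 entered the comparison, of 21112 genes tested. Ddx60, a helicase-like gene, and Xaf1, a pro-apoptotic gene, were not matched to any probe and are not analysed here. The Oas1g probe stayed near background on all 10 arrays. Both groups were male C57BL/6J mice, 8 weeks old, whose lungs were taken after they inhaled aerosolized saline for 30 min. The 5 p53-null mice are labelled null for p53, the transcription factor encoded by Trp53, and the 5 wild-type mice carried no labelled mutation. Neither the targeted allele nor the breeding of the p53-null mice is given in the sources used here. There was 1 RNA sample per array, the mice are described as separate biological replicates, and no group without saline was measured.

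Interferons are secreted cytokines, and cells release type I interferons on sensing viral or bacterial nucleic acids. Type I interferons signal through IFNAR and a factor that includes STAT2 and IRF9 and binds the interferon-stimulated response element; genes induced by type II interferon, IFN-gamma, often carry the gamma-activated sequence. The induced genes encode antiviral enzymes, nucleic acid sensors, GTPases that attack vacuoles of intracellular pathogens, and the transcription factors that amplify the response. In lung they are expressed by epithelium, endothelium and resident leukocytes.

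Sequences upstream of 4 of these genes are shown because they hold the best-called member with an interferon element, a called member without any, and a pair of neighbouring genes with the same elements of which 1 was called higher and the other, without wild-type array 5, called lower in p53-null lung. They are RefSeq promoter sequences on GRCm38.p6, 5′ to 3′ on the gene's strand. Capitals mark matches on either strand to the response element core, GAAANNGAAA, or to the gamma-activated sequence, TTCNNNGAA; cores may overlap. Ifit3 was chosen for display after its values were seen.
Oas1a (chr5:120907526-120907645, minus strand): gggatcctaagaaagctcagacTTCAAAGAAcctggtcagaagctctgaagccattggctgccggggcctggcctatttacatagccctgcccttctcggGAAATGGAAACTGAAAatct
Trim30b (chr7:104358647-104358766, minus strand): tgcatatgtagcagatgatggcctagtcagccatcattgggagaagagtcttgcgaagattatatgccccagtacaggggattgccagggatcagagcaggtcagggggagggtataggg
Ifit3 (chr19:34583353-34583436, plus strand): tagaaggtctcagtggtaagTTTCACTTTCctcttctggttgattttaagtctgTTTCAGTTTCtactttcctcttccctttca
Ifit1 (chr19:34640765-34640833, plus strand): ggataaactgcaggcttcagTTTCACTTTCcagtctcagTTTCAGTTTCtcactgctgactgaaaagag

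Oas1a carried 2 overlapping cores that ended 5 bases before the annotated start of the gene, at -5. Ifit3 and Ifit1 each carried the same pair of core words, TTTCACTTTC and TTTCAGTTTC. In Ifit3 these began at -156 and -122 from the start, and in Ifit1 at -104 and -85. Promoter windows, from 250 bases before to 50 after a start, were held for 32 of the 44 genes, and 20 of these 32 had a core. By window, 21 of 40 (52.5%) held a core, against 1131 of all 32851 RefSeq windows (3.44%). The gamma-activated sequence was found in 11 of 40 windows (27.5%), against 8.30% of all windows. A match is a description of letters, and its absence in Trim30b says only that these letters are not in that window.

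On each array the signal was taken as log2 of the deposited intensity minus the log2 of that array's 75th percentile, so a level of 0 equals the 75th percentile of that array's spots. The share of spots well above background was 71.4% to 84.0% per array, and precision is limited by having 5 arrays per genotype. The label was checked on Trp53: a probe printed in 10 spots lay at -3.15, -2.99, -3.11, -3.00 and -2.66 on p53-null arrays 1 to 5, against -1.67, -1.64, -1.54, -1.43 and -2.22 on wild-type arrays 1 to 5, a difference of -1.28 ± 0.16 (SE; limma adjusted p = 0.00589). Another Trp53 probe read 0.60, 0.65, 0.43, 0.13 and 0.39 on p53-null arrays 1 to 5, against -0.01, -0.34, 0.01, -0.25 and 1.24 on wild-type arrays 1 to 5. It differed by 0.31 ± 0.28 and was not called, and without wild-type array 5 it was higher in p53-null lung, at 0.59 (limma adjusted p = 0.00845). Which probe lies in the deleted part is not given. Wild-type array 5 lay between the groups at the first of these probes and above all other arrays at the second. It also stood apart in the whole comparison, so the counts of members are given with and without it. Genes of lung epithelium were bright on all 10 arrays: the summed level of surfactant genes, Scgb1a1 and Ager was 506 to 619 times the 75th percentile in p53-null lung, against 417 to 700 times in wild-type lung. The summed level of skeletal muscle genes was 42.0 and 42.2 on p53-null arrays 4 and 5 and 90.5 on wild-type array 2, against 2.66 to 8.98 on the other 7 arrays.

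Of the 41 tested members, 13 were higher in p53-null lung and 0 were lower at a Benjamini-Hochberg adjusted p under 0.05 in limma. The 13 are 31.7% of the tested members, against 4.6% of all tested genes called higher and 2.89% called lower. An unadjusted limma p under 0.05 was found for 24 members, and for 5825 of all 21112 tested genes. The median difference of the members, p53-null minus wild type, was 0.32 on the log2 scale, against 0.05 for all tested genes, and 32 of 41 differences were above 0. In 15 members every p53-null array lay above every wild-type array (36.6%, against 5.45% of all tested genes), and in 0 members every p53-null array lay below (3.88% of all tested genes). Without wild-type array 5, 22 members were higher and 2 were lower, against 17.1% of all tested genes called higher and 14.3% called lower. The 22 higher members are 53.7% of the list, and the 2 lower ones 4.88%, under the share of all genes. All 13 genes called with 10 arrays were also called without this array. Leaving out any other array cut the calls to between 5 and 9, and those among all tested genes from 1582 to between 192 and 965. Oas1a, Dhx58, Trim30b, Irf7 and Usp18 were called in all 10 such fits. Genotype was not balanced over slides: only the slide with p53-null array 2 and wild-type array 4 held both genotypes. On the other slides an effect of slide and an effect of genotype cannot be told apart. In whole lung, more cells of a type and more RNA per cell cannot be told apart.

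**Figure D1:**
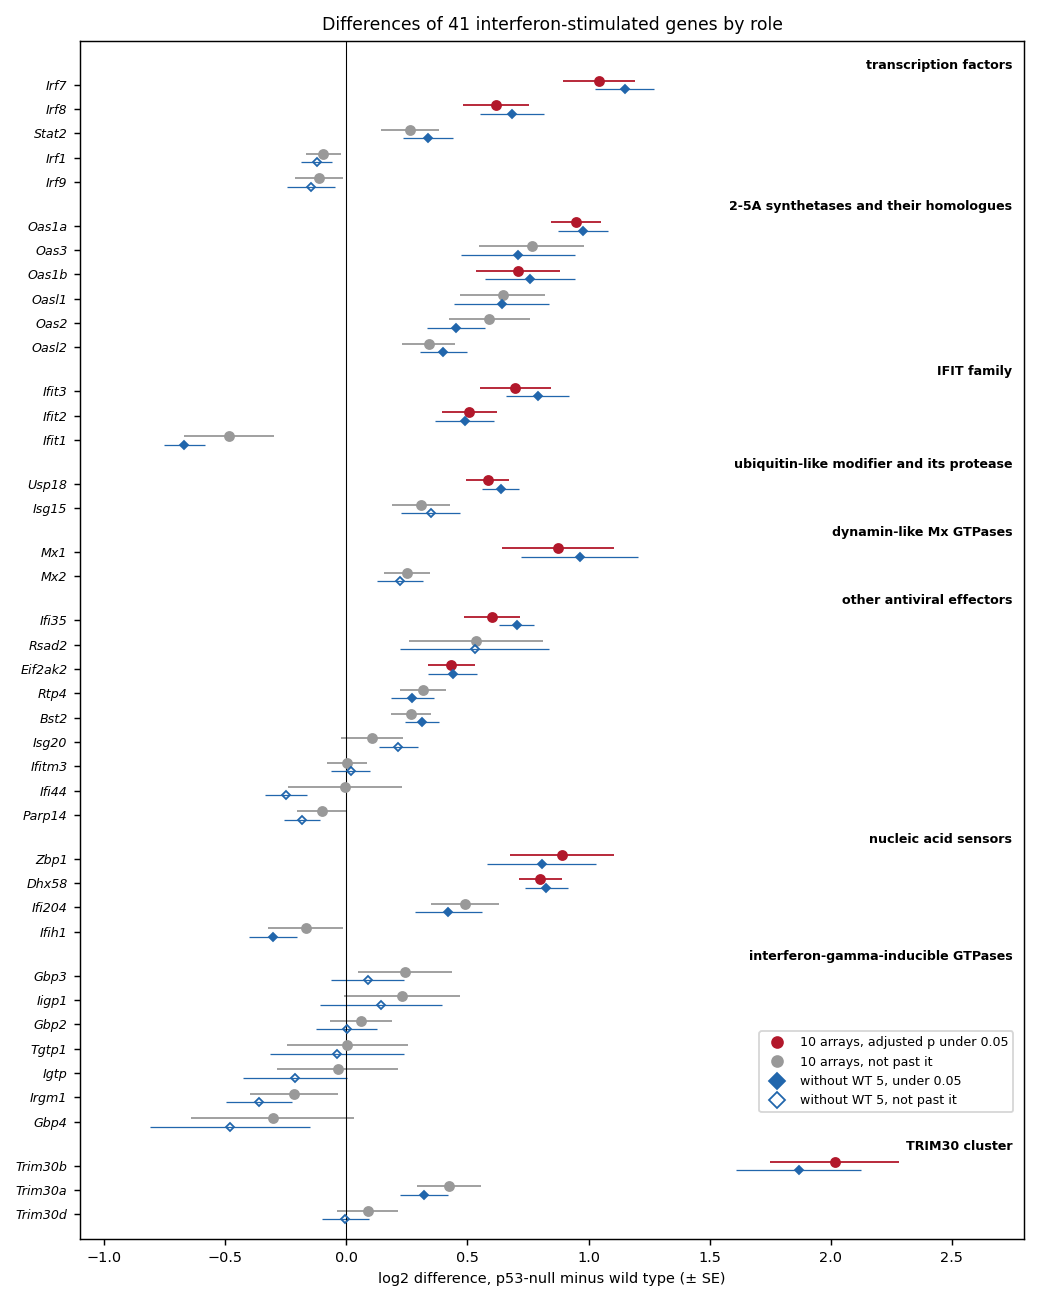
Log2 difference, p53-null minus wild type, with its SE for 41 interferon-stimulated genes grouped by role (rows), from all 10 arrays (circles) and without wild-type array 5 (diamonds); red circles and filled diamonds passed an adjusted p of 0.05. All 13 genes called with 10 arrays lie right of 0, the 7 interferon-gamma-inducible GTPases lie around 0, and Ifit1 lies left of 0 at -0.48.

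Among the transcription factors, Irf7 and Irf8 rose, and Irf1, Irf9 and Stat2 were not called. Irf7 is the factor that drives the late wave of interferon-alpha genes. Its probe on chromosome 7 (137682028 to 137682378, mm7) read -0.36, -0.63, -0.45, -0.63 and -0.83 on p53-null arrays 1 to 5, against -1.54, -1.84, -1.94, -1.61 and -1.20 on wild-type arrays 1 to 5. The groups did not overlap, and wild-type array 5 was the wild-type array nearest to the p53-null ones. The difference was 1.04 ± 0.15, a 2.06-fold higher signal (limma adjusted p = 0.0114), and 1.15 ± 0.12 without wild-type array 5.

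Irf8, which directs myeloid and B cell development and is induced by IFN-gamma, read 3.34, 2.69, 2.82, 2.71 and 2.82 in p53-null lung, against 2.11, 2.25, 2.17, 2.23 and 2.52 in wild-type lung (chromosome 8, 119391398 to 119391457). P53-null array 1 stood above all others, and the groups did not overlap. Irf8 rose by 0.62 ± 0.14 (limma adjusted p = 0.0318). Its second probe differed by 0.70 ± 0.26 and was not called. Stat2 and Irf9, which encode parts of the factor that type I interferon activates, differed by 0.26 ± 0.12 and -0.11 ± 0.10. Stat2 was called without wild-type array 5 (0.34 ± 0.10, limma adjusted p = 0.0361), but not with a trend on probe GC content removed as well (0.23, limma adjusted p = 0.148). Irf1, the primary IFN-gamma response factor, differed by -0.10 ± 0.07.

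The 2-5A synthetases make the second messenger that activates RNase L, and all 6 tested members of this family had a positive difference, with a median of 0.68. Of these, 2 were called with 10 arrays, and all 6 were called without wild-type array 5. With a trend on probe GC content removed as well, 3 of the 6 were called, and Oas2, Oas3 and Oasl1 were not (limma adjusted p = 0.0568, 0.0824 and 0.111). Oas1a read 0.73, 0.34, 0.51, 0.43 and 0.34 on p53-null arrays 1 to 5, against -0.52, -0.31, -0.61, -0.59 and -0.36 on wild-type arrays 1 to 5 (chromosome 5, 120132325 to 120132384). Each group kept within a narrow band, with every p53-null array above 0 and every wild-type array below it. Oas1a had the smallest p of all members, at 0.95 ± 0.10 or 1.93-fold higher (limma adjusted p = 0.00297).

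Oas1b, known for alleles that restrict flaviviruses in mice, read -4.07, -3.52, -3.39, -3.88 and -3.83 in p53-null lung, against -4.34, -4.80, -4.73, -4.12 and -4.25 in wild-type lung (chromosome 5, 120055330 to 120055389). P53-null array 1 and wild-type array 4 nearly met, without overlap. It rose by 0.71 ± 0.17 (limma adjusted p = 0.0412), a call kept only when wild-type array 5 was left out among the 10 fits that dropped an array. Oas1g, whose promoter holds the same overlapping cores as Oas1a, lay between -9.26 and -8.45 in p53-null lung, against -10.47 to -8.61 in wild-type lung, and no fold is given.

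The next synthetases missed the threshold narrowly. Oasl1, a family member that lacks synthetase activity, read -1.38, -1.59, -1.57, -1.44 and -1.66 in p53-null lung, against -2.44, -1.50, -2.51, -2.23 and -2.19 in wild-type lung (chromosome 5, 114158380 to 114158439). Wild-type array 2 lay among the p53-null arrays and the other wild-type arrays far below them. Its difference was 0.64 ± 0.18 (limma adjusted p = 0.0545). Oas2, a synthetase with a duplicated catalytic unit, read 0.39, -0.02, 0.34, 0.06 and 0.19 in p53-null lung, against -0.53, -0.10, -0.16, -0.25 and -0.95 in wild-type lung (119964411 to 119964470). The groups did not overlap, and wild-type array 5 was the lowest. The difference was 0.59 ± 0.17 (limma adjusted p = 0.0590), and 0.45 ± 0.12 without that array; a second Oas2 probe differed by -0.03 ± 0.19.

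Oas3, the largest synthetase and the main activator of RNase L in human cells, read -3.26, -3.43, -3.96, -3.66 and -4.09 in p53-null lung, against -4.57, -4.02, -4.90, -4.07 and -4.67 in wild-type lung (119987575 to 119987634). P53-null array 5 was the only p53-null array that reached into the wild-type range. The difference was 0.77 ± 0.22 (limma adjusted p = 0.0591), and the second probe gave 0.79 ± 0.23. Oasl2 differed by 0.34 ± 0.11 (limma adjusted p = 0.0804).

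The IFIT genes lie side by side on chromosome 19 and encode tetratricopeptide proteins that bind viral RNA and halt translation; their differences were not all of one sign. Ifit3 read 2.58, 2.62, 2.47, 2.63 and 2.32 on p53-null arrays 1 to 5, against 1.99, 1.68, 1.39, 1.88 and 2.20 on wild-type arrays 1 to 5 (34289919 to 34289978). The groups stayed apart, with wild-type array 5 closest to the p53-null ones. Ifit3 rose by 0.70 ± 0.15 (limma adjusted p = 0.0282). A second probe, assigned to Ifit3 by name alone and placed apart from the first (34313887 to 34313946), differed by 0.55 ± 0.14. Whether it reads Ifit3 or a neighbouring paralog was not tested, nor was signal shared between IFIT probes.

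Ifit2 read -0.93, -0.74, -1.01, -1.11 and -1.26 in p53-null lung, against -1.32, -1.71, -1.57, -1.39 and -1.60 in wild-type lung (34277058 to 34277117). Again the groups did not overlap, though p53-null array 5 and wild-type array 1 were close. Ifit2 rose by 0.51 ± 0.12 (limma adjusted p = 0.0332), and its second probe differed by 0.44 ± 0.14, not called.

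Ifit1, whose upstream sequence above carries the same core words as that of Ifit3, ran the other way. It read -0.54, -0.47, -0.34, -0.19 and -0.44 in p53-null lung, against 0.16, 0.26, 0.34, 0.34 and -0.65 in wild-type lung (34350610 to 34350669). Wild-type array 5 lay below every p53-null array and wild-type arrays 1 to 4 above all of them. With 10 arrays Ifit1 differed by -0.48 ± 0.19 and was not called (limma adjusted p = 0.129). Without wild-type array 5 Ifit1 fell, with a difference of -0.67 ± 0.08 (limma adjusted p = 0.00110). Ifit1 thus had the lowest difference of all tested members with and without that array.

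**Figure D2:**
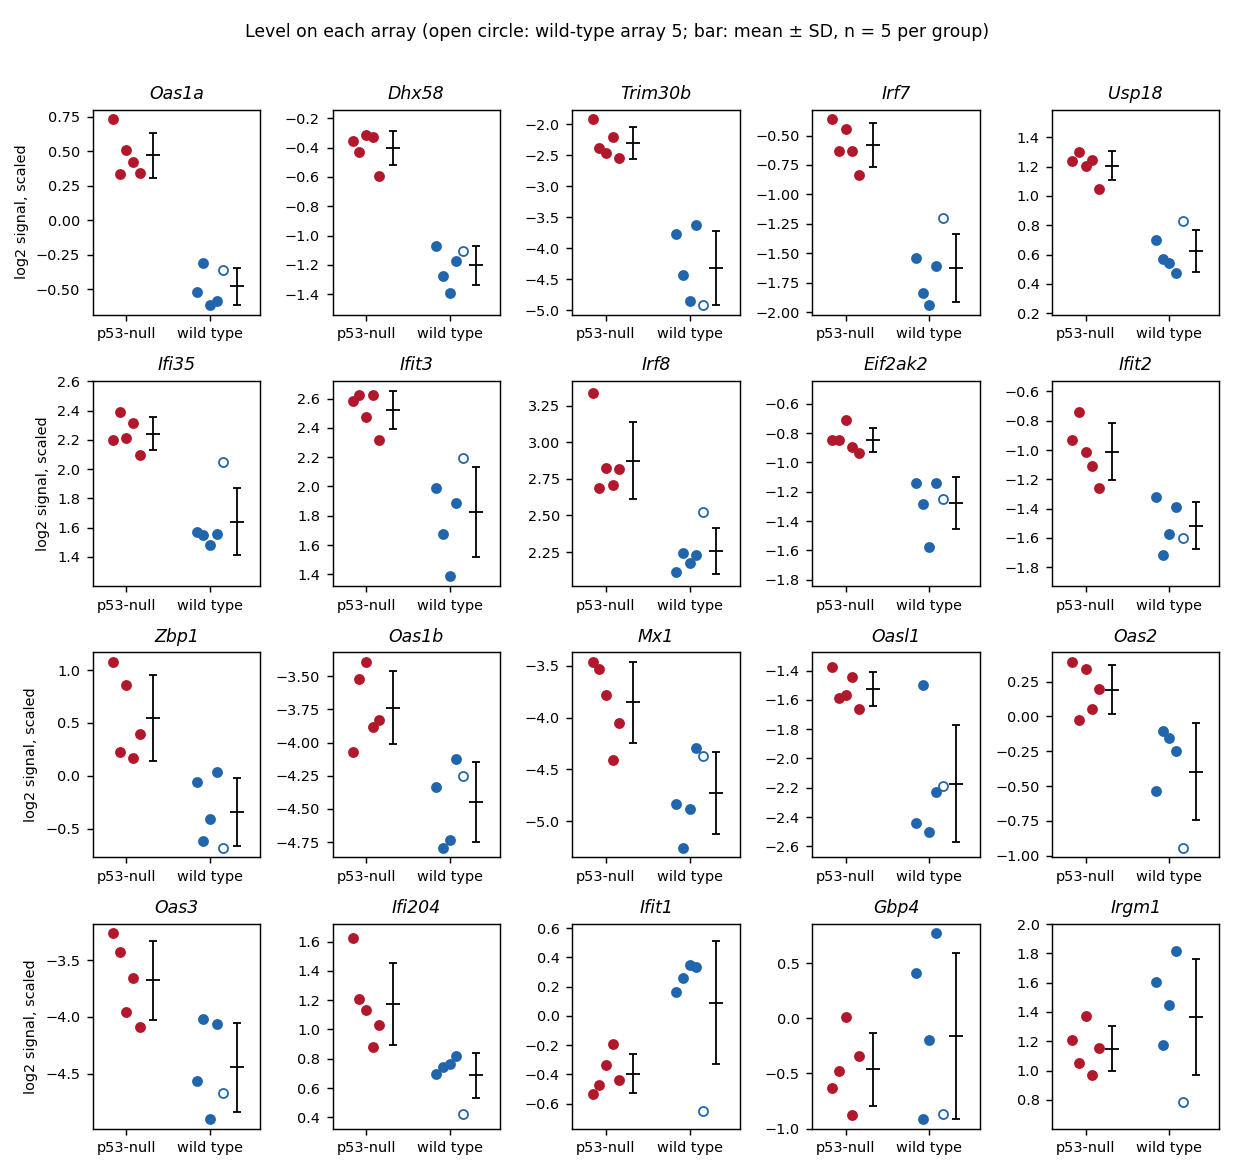
Scaled log2 signal on each of the 5 p53-null (red, left) and 5 wild-type arrays (blue, right) for the 13 called members, the 4 uncalled members with the smallest p and the 3 with the lowest difference; black bars are mean ± SD and the open circle is wild-type array 5. Oas1a, Dhx58, Trim30b, Irf7 and Usp18 separate the groups widely, and in Ifit1 wild-type array 5 sits at -0.65, apart from wild-type arrays 1 to 4 at 0.16 to 0.34.

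ISG15 is a ubiquitin-like protein attached to other proteins after interferon exposure, and USP18 removes it and also blocks the type I receptor. Usp18 read 1.24, 1.30, 1.21, 1.24 and 1.04 in p53-null lung, against 0.70, 0.57, 0.54, 0.47 and 0.83 in wild-type lung (chromosome 6, 121295796 to 121295855). No wild-type array reached the p53-null range. The gene rose by 0.58 ± 0.09, or 1.50-fold (limma adjusted p = 0.0126). Isg15 differed by 0.31 ± 0.12 and was not called (limma adjusted p = 0.129); its probe is placed on chromosome 17 by the files and the gene on chromosome 4 by RefSeq.

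Mx1 and Mx2 are genes of the dynamin-like Mx GTPase family. Whether these mice make working Mx proteins was not measured. Mx1 read -3.47, -3.54, -3.78, -4.41 and -4.06 in p53-null lung, against -4.84, -5.26, -4.88, -4.29 and -4.37 in wild-type lung (chromosome 16, 97829378 to 97829437). P53-null array 4 lay below wild-type arrays 4 and 5, so the groups overlapped. Mx1 rose by 0.87 ± 0.23 at a limma adjusted p of 0.0498, the largest of the 13 calls. A second probe gave 0.75 ± 0.23. Mx2 differed by 0.25 ± 0.09, not called.

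Among 9 tested genes with other antiviral roles, Ifi35 and Eif2ak2 rose. Ifi35, a leucine-zipper protein that interacts with NMI, read 2.20, 2.39, 2.21, 2.32 and 2.10 in p53-null lung, against 1.57, 1.55, 1.48, 1.56 and 2.05 in wild-type lung (chromosome 11, 101566736 to 101566795). Wild-type array 5 lay just under the p53-null arrays, away from the other 4 wild-type arrays. The difference was 0.60 ± 0.12 (limma adjusted p = 0.0237) and 0.70 ± 0.07 without that array. Eif2ak2, the double-stranded RNA-activated kinase PKR that stops translation, read -0.84, -0.85, -0.71, -0.89 and -0.93 in p53-null lung, against -1.14, -1.29, -1.58, -1.14 and -1.25 in wild-type lung (chromosome 17, 77153382 to 77153441). The groups did not overlap, and p53-null lung varied less. Eif2ak2 rose by 0.43 ± 0.10 (limma adjusted p = 0.0328).

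The other 7 genes of this group were not called. Rsad2, which encodes viperin, had the largest difference of the 7 and a wide spread, at 0.54 ± 0.28, and its further probes gave 0.83 ± 0.35 and 0.78 ± 0.31. Rtp4 (0.32 ± 0.10) and Bst2, the tether of budding virions (0.27 ± 0.08), were called, among the 10 fits that dropped an array, only in the fit without wild-type array 5. With the trend on probe GC content removed as well, neither was called, with differences of 0.14 for Rtp4 and -0.01 for Bst2 (limma adjusted p = 0.394 and 0.978). Ifitm3, which blocks viral entry at endosomes, differed by 0.00 ± 0.08. Isg20, an exonuclease, differed by 0.11 ± 0.13 and Parp14 by -0.10 ± 0.10. Ifi44 differed by -0.01 ± 0.24 with wild-type array 5, its lowest array at -2.02, and by -0.25 ± 0.09 without it (limma adjusted p = 0.0589). Ifi44 and Parp14 each had a further probe with a positive difference, at 0.69 ± 0.27 and 0.58 ± 0.18.

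Of the 4 tested nucleic acid sensors, Dhx58 and Zbp1 rose. Dhx58 encodes LGP2, a helicase that tunes MDA5 and RIG-I signalling. Its probe read -0.35, -0.43, -0.31, -0.33 and -0.59 in p53-null lung, against -1.07, -1.27, -1.39, -1.17 and -1.10 in wild-type lung (chromosome 11, 100803996 to 100804055). The gap between the groups was wider than the range of either. Dhx58 rose by 0.80 ± 0.09, or 1.74-fold (limma adjusted p = 0.00404); the signal of a second probe stayed near background on all 10 arrays. Zbp1, a sensor of Z-form nucleic acid that triggers necroptosis, read 1.08, 0.22, 0.86, 0.17 and 0.39 in p53-null lung, against -0.06, -0.61, -0.41, 0.04 and -0.68 in wild-type lung (chromosome 2, 172950998 to 172951057). P53-null arrays 1 and 3 were highest and wild-type array 4 came closest from below. Zbp1 rose by 0.89 ± 0.22 (limma adjusted p = 0.0404), a call that held in 1 of 10 fits that dropped an array. With the trend on probe GC content removed and wild-type array 5 left out, Zbp1 was not called (0.67, limma adjusted p = 0.0673).

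Ifi204, a DNA-binding protein of the IFI200 family, read 1.62, 1.21, 1.13, 0.88 and 1.03 in p53-null lung, against 0.70, 0.74, 0.76, 0.82 and 0.42 in wild-type lung (chromosome 1, 173721318 to 173721377). The groups did not overlap, by a small margin at p53-null array 4 and wild-type array 4. The difference of 0.49 ± 0.14 was not called (limma adjusted p = 0.0609), and further probes gave 0.41 ± 0.19 and 0.38 ± 0.19. Ifih1, which encodes the sensor MDA5, differed by -0.17 ± 0.15. Without wild-type array 5, its lowest wild-type array, Ifih1 was lower in p53-null lung at -0.30 ± 0.10 (limma adjusted p = 0.0457), though not with the trend on probe GC content also removed (limma adjusted p = 0.0839).

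The 7 interferon-gamma-inducible GTPases, the guanylate-binding proteins and immunity-related GTPases that act on pathogen vacuoles, had 0 calls in either direction, with and without wild-type array 5. By limma, 0 of the 7 had an unadjusted p under 0.05 with 10 arrays and 1 without wild-type array 5. Of all 21112 tested genes, 5825 had such a p with 10 arrays and 8958 without wild-type array 5. The median difference of the 7 with 10 arrays was 0.00, with a range of -0.30 to 0.24. Gbp4 (named Mpa2 in the files) read -0.63, -0.48, 0.01, -0.88 and -0.34 in p53-null lung, against 0.41, -0.92, -0.20, 0.77 and -0.87 in wild-type lung (chromosome 5, 104286256 to 104286315). Wild-type arrays 1 and 4 were high and wild-type arrays 2 and 5 were as low as the lowest p53-null array. The difference was -0.30 ± 0.34 (limma adjusted p = 0.600).

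Irgm1, a regulator of the other immunity-related GTPases, read 1.21, 1.05, 1.37, 0.97 and 1.16 in p53-null lung, against 1.60, 1.17, 1.45, 1.82 and 0.79 in wild-type lung (chromosome 11, 48822320 to 48822379). The wild-type arrays lay on both sides of the p53-null ones. Its difference was -0.22 ± 0.18, and -0.36 ± 0.14 without wild-type array 5 (limma adjusted p = 0.0755); a second probe gave -0.14 ± 0.16. Igtp, Tgtp1, Gbp2, Gbp3 and Iigp1 differed by -0.04, 0.00, 0.06, 0.24 and 0.23, and without wild-type array 5 by -0.21, -0.04, 0.00, 0.09 and 0.14. Without that array all 7 differences were lower than with it, Gbp4 at -0.48, and their median was -0.04. These GTPases varied together between mice of one genotype: the median deviation of the 7 from their means was 0.39 on p53-null array 3 and between -0.28 and 0.06 on the other p53-null arrays. In wild-type lung it was 0.34 on array 1 and 0.56 on array 4, against -0.38 on array 2, -0.09 on array 3 and -0.47 on array 5.

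The TRIM30 genes are neighbours on chromosome 7, and the protein of Trim30a restrains Toll-like receptor signalling. Trim30b had the largest difference of all members. It read -1.92, -2.38, -2.46, -2.21 and -2.55 on p53-null arrays 1 to 5, against -3.78, -4.43, -4.86, -3.63 and -4.92 on wild-type arrays 1 to 5 (100411839 to 100411898). The lowest p53-null array was far above the highest wild-type array. Trim30b rose by 2.02 ± 0.27, or 4.05-fold (limma adjusted p = 0.00904), from signals well above background on all 10 arrays. Trim30a (100465453 to 100465512) differed by 0.42 ± 0.13 (limma adjusted p = 0.0765), with a second probe at 0.42 ± 0.13. Trim30d (100528680 to 100528739) differed by 0.09 ± 0.13. The genes are close paralogs, and signal shared between their probes was not tested.

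**Figure D3:**
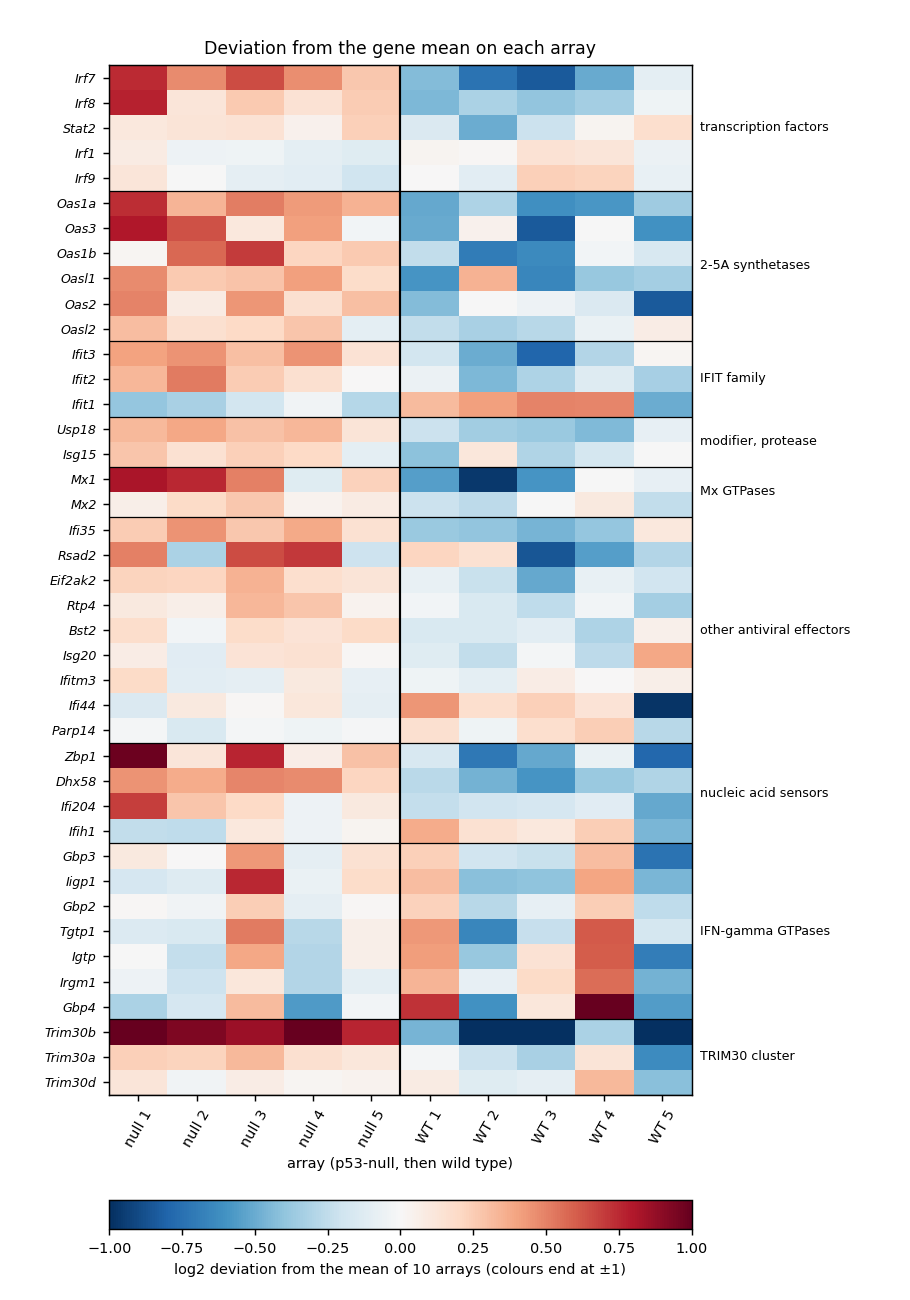
Deviation of each member from its mean over 10 arrays (rows, log2, colours end at ±1) on 5 p53-null arrays (left) and 5 wild-type arrays (right), with members grouped by role. Oas1a, Irf7, Usp18, Dhx58 and Trim30b are red on the left and blue on the right, while the interferon-gamma-inducible GTPases follow single mice, high on p53-null array 3 and wild-type arrays 1 and 4.

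Across all 41 members, the median deviation on p53-null arrays 1 to 5 was 0.19, 0.12, 0.27, 0.13 and 0.08, against -0.12, -0.25, -0.25, -0.03 and -0.29 on wild-type arrays 1 to 5. Every p53-null array was above every wild-type array, with wild-type array 4 nearest. Slides were numbered in 2 ranges, and the comparison was repeated inside each. In the lower range, with p53-null arrays 1, 3, 4 and 5 and wild-type arrays 1, 2 and 5, the median difference was 0.37 and 35 of 41 differences were above 0. The median of all tested genes there was 0.02. In the higher range, with p53-null array 2 and wild-type arrays 3 and 4, the members' median was 0.22 and 26 of 41 were above 0. There the median of all tested genes was 0.11. The range as a block gave 0.31, against 0.05 for all tested genes, with 7 members and 697 of all tested genes called.

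Probe GC content moved with the arrays: its correlation with an array's deviations was 0.18, 0.20, 0.00, 0.09 and 0.02 on p53-null arrays 1 to 5, against -0.31, 0.00, -0.23, -0.32 and 0.35 on wild-type arrays 1 to 5. After this trend was removed, a step added once the data had been seen, 10 members were higher (24.4%, against 2.43% of all tested genes) and 0 were lower (2.01%), and all 10 were among the 13. The median difference was 0.26, against -0.02 for all tested genes. Irf8, Zbp1 and Mx1 lost their call, at 0.53, 0.80 and 0.75. The differences of Bst2 and Isg15 were 0.07 and 0.11 after it. With the trend removed and wild-type array 5 left out, 14 members were higher (34.1%, against 9.26% of all tested genes) and 2, Ifit1 and Ifi44, were lower (4.88%, against 15.6% of all tested genes), so that among all genes lower calls outnumbered higher ones in this fit. All 14 were among the 22 higher without that array.

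Of 41 other genes of the interferon pathway, 34 were tested, 4 were higher (11.8%, against 4.6% of all tested genes) and 0 were lower (2.89% of all tested genes). Without wild-type array 5, 10 were higher (29.4%, against 17.1%) and 5 lower (14.7%, against 14.3%, near the share of all genes). Of the interferons, Ifng, the type II interferon made by T and NK cells, rose. It read -2.49, -3.17, -2.64, -3.19 and -2.82 in p53-null lung, against -3.47, -3.68, -3.37, -3.25 and -3.76 in wild-type lung, a difference of 0.64 ± 0.16 (limma adjusted p = 0.0449). P53-null arrays 2 and 4 lay just above the highest wild-type array, and the call held in 1 of 10 fits that dropped an array. With the trend on probe GC content removed, Ifng was not called (0.61, limma adjusted p = 0.0683). Ifnb1 and Ifne were not well above background on any array. Ifna2 and Ifna4 were well above background on 1 array of each genotype and Ifnk on 1 p53-null array, and none of these 3 was tested. Ifna1 and Ifnl3 were tested and not called, at 0.40 ± 0.36 and 0.58 ± 0.51.

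The 6 receptor chains, Ifnar1, Ifnar2, Ifngr1, Ifngr2, Ifnlr1 and Il10rb, had 0 calls by limma with 10 arrays, 0 of the 6 at an unadjusted p under 0.05, and differences between -0.21 and 0.04; Il10rb had the smallest p (-0.21 ± 0.11, limma adjusted p = 0.270) and was called lower without wild-type array 5. Of 5 kinases and STATs, 0 were called by limma and 2 had an unadjusted p under 0.05; Tyk2, a kinase bound to IFNAR1, came closest at 0.62 ± 0.17 (limma adjusted p = 0.0547). Upstream, Ikbke, a kinase that activates IRF3 and IRF7, rose by 0.60 ± 0.13 (limma adjusted p = 0.0291), as 1 of 12 tested genes. Among 8 negative regulators, Ptpn6, the leukocyte phosphatase SHP-1, rose by 0.87 ± 0.14 (limma adjusted p = 0.0149) and Trex1, a DNase that clears cytosolic DNA, by 0.64 ± 0.14 (limma adjusted p = 0.0326). Adar, the RNA editor that masks self RNA, ran low in p53-null lung like Ifit1, at -0.83 ± 0.32 with 10 arrays (limma adjusted p = 0.129) and -1.15 without wild-type array 5.

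Many leukocyte markers were also called higher in p53-null lung, where 4.6% of all tested genes were called higher. Of 6 general leukocyte markers, 3 were higher, led by Coro1a (0.99 ± 0.15), Cd52 (0.87 ± 0.17) and Ptprc (0.70 ± 0.17), and their summed level was 40.9 to 66.4 in p53-null lung, against 24.0 to 33.3 in wild-type lung, in multiples of the 75th percentile. Neutrophil markers were higher for 7 of 9, with sums of 19.0 to 43.5 in p53-null lung, against 4.05 to 8.11 in wild-type lung, and S100a9 at 2.42 ± 0.28. B cell markers were higher for 6 of 7, with sums of 30.9 to 62.4 in p53-null lung, against 9.74 to 21.9 in wild-type lung. T and NK cell markers were higher for 4 of 9, with sums of 7.74 to 10.9 in p53-null lung, against 4.38 to 6.62 in wild-type lung. None of these 4 sums overlapped between genotypes. Of all tested genes taken singly, 5.45% had every p53-null array above every wild-type array. With the trend on probe GC content removed, fewer markers were called higher in each list. They were 2 of 6 general, 6 of 9 neutrophil, 5 of 7 B cell and 2 of 9 T and NK cell markers, against 2.43% of all tested genes. Cd52 was not called in that fit (0.71, limma adjusted p = 0.0704). The sums are on the linear scale, as are the other sums given here, so the brightest genes weigh most. On p53-null array 1, in log2, S100a9 read 5.19 and the next neutrophil marker, S100a8, 1.86. Ighm read 5.33 there and the next B cell marker, Cd79b, 3.66. Cd52 and Coro1a read 4.57 and 4.49, and the next general marker, Ptprc, 3.20. P53-null array 1 was highest for the general, neutrophil and B cell sums, and p53-null array 3 for the T and NK cell sum. The median deviation of all 41 members was highest on p53-null array 3, at 0.27, against 0.19 on p53-null array 1.

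Plasmacytoid dendritic cells, the chief source of interferon-alpha, had 2 of 5 markers higher, Siglech (0.87 ± 0.18) and Pacsin1 (0.91 ± 0.17), with sums of 8.39 to 16.8 in p53-null lung, against 9.32 to 26.0 in wild-type lung. Cox6a2, a gene that muscle also expresses, made up nearly all of these sums, with 25.8 of the 26.0 on wild-type array 2. Without Cox6a2, a step chosen after the values were seen, the sums were 0.283 to 0.456 in p53-null lung, against 0.211 to 0.313 in wild-type lung. Macrophage and monocyte markers had 1 higher and 1 lower of 6 tested: Csf1r at 0.56 ± 0.14 and Marco at -0.77 ± 0.17, with sums of 64.3 to 80.9 in p53-null lung, against 55.8 to 95.5 in wild-type lung. With the trend on probe GC content removed, Csf1r was not called (0.54, limma adjusted p = 0.0743). Marco was still called lower in that fit (-0.97, limma adjusted p = 0.0294). Of 4 endothelial markers, 5 epithelial, 6 skeletal muscle and 4 squamous markers tested, 0 were called by limma with 10 arrays, and 0 had an unadjusted p under 0.05. Without wild-type array 5, the endothelial cadherin gene Cdh5 was lower (-0.48, limma adjusted p = 0.00230) and the club cell secretory gene Scgb1a1 higher (0.30, limma adjusted p = 0.0305). The endothelial markers had sums of 76.5 to 84.0 in p53-null lung, against 81.8 to 106.5 in wild-type lung. The part of these cell types in the differences of the interferon-stimulated genes was not tested.

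**Figure D4:**
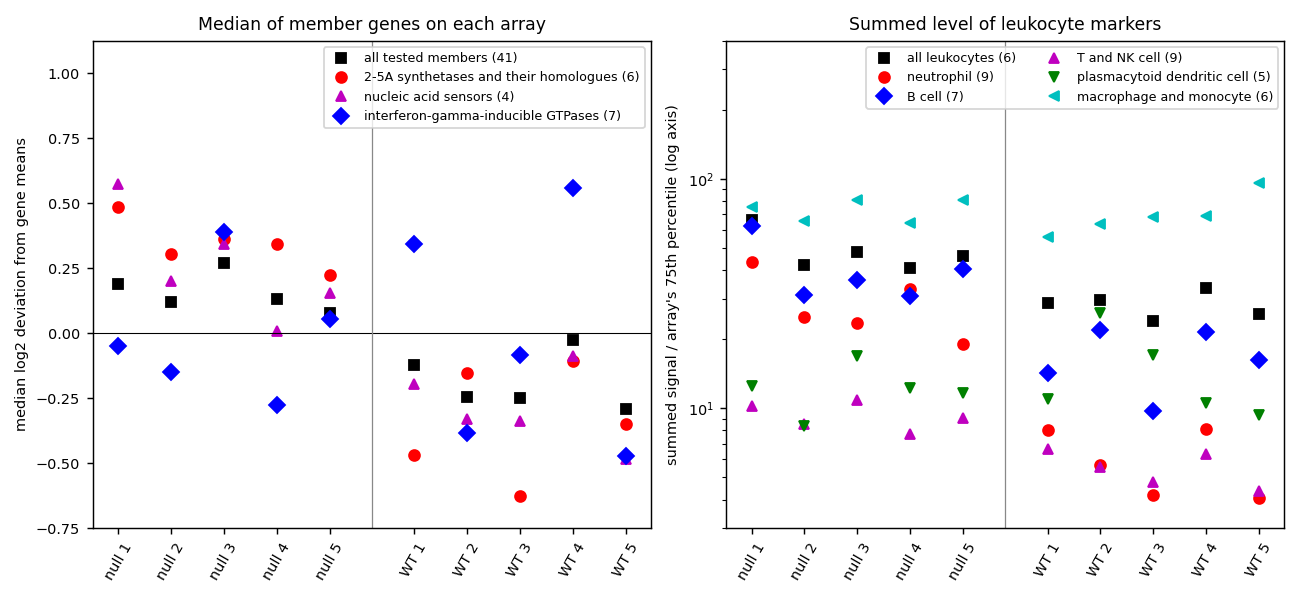
Left, median log2 deviation of all 41 members, of 6 synthetases, 4 nucleic acid sensors and 7 interferon-gamma-inducible GTPases on each array; right, summed scaled signal of leukocyte marker lists on a log axis, with the number of genes measured in brackets. P53-null arrays are on the left of each panel; the synthetases and the neutrophil and B cell sums separate the genotypes, while the GTPases range from -0.28 to 0.39 in p53-null lung and from -0.47 to 0.56 in wild-type lung.

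By position, Dhx58 and Ifi35 lie on the same chromosome as the targeted gene, whose probe is placed at 69.7 Mb (mm7), at distances of 31.1 and 31.9 Mb. The uncalled Irgm1, Tgtp1, Irf1 and Igtp lie on its other side. The other 11 called members are on other chromosomes.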

How the data were processed

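Per the labels, total RNA of whole lung was converted to Cy3-labelled cRNA for 1-colour arrays. Agilent Feature Extraction 9.5 is the extraction software named in the submitters' processing notes. Per the file headers, the deposited intensity has had background subtracted and a spatial trend removed, array by array; it equals the series' value table (largest difference 0).

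For each array, log2 intensities had the log2 of its 75th percentile over 43379 spots other than controls subtracted. Outlier-flagged spots were dropped, repeated spots averaged, and the probe with the highest mean stood for its gene. Names came from GRCm38.p6 RefSeq tables where an accession, symbol or synonym matched; probe coordinates are those of the files (mm7). The probe that stood for Gbp3 carries the name Gbp4 in the files.

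A gene was tested if well above background on 5 or more of 10 arrays, with limma 3.58.1 (lmFit, eBayes; R 4.3.3) and Benjamini-Hochberg adjustment over all tested genes at 0.05; further probes were adjusted over all probes. Values are log2 differences ± SE with n = 5 per group. The code was tested on simulated data.

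The members, roles, other pathway genes and marker lists were chosen with earlier results of these data known, and no p was computed over a list. Values on every array are given for each called member, the 4 uncalled members with the smallest p and the 3 with the lowest difference; other lists are given by counts, up to 3 called genes by smallest p, or the gene with the smallest p. Adar, and genes singled out beside this rule, were chosen after their values were seen. Alternatives covered background, scaling, the filter, probe choice, batch terms (slide, range of slide numbers, scan day, replicate number), the variance model, weights, thresholds, arrays left out and, added later, probe GC content.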

Additional observations from a re-analysis of the deposited data

Results flagged for a closer look

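Among 112 groups of 5 arrays checked, 9 held an array far from the other 4 by Dixon's criterion, which chance gives in about 1 of 20 groups. Wild-type array 5 accounted for 4: it was low for Ifit1 at -0.65 (nearest wild-type array 0.16) and Ifi44 at -2.02 (nearest -0.90), and high for Ifi35 at 2.05 (nearest 1.57) and Trex1 at 0.37 (nearest -0.23). P53-null array 1 was high for Irf8 at 3.34 (nearest 2.82) and Ptpn6 at 2.54 (nearest 1.95). P53-null array 2 was low for Bst2 at 4.11 (nearest 4.27) and Parp14 at 2.94 (nearest 3.05). P53-null array 5 was low in the median deviation of Isg15 and Usp18 at 0.0157 (nearest 0.26). The part of the GC trend or of leukocyte content in these values was not tested.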

How the results depend on the processing

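The 13 called members stayed above 0 in all 390 values computed for them under 30 alternatives, and no call changed sign in any member; how many passed the threshold moved with the arrays and the batch terms. Against 13 calls, there were 7 with median scaling, 6 with no filter on dim genes, 24 with array weights, 3 at an adjusted p under 0.01, 21 under 0.10 and 2 with at least 2-fold. Among all tested genes, against 1582 calls, the same settings gave 583, 538, 6510, 56, 3526 and 231 in that order. A block for the range of slide numbers gave 7 calls, and 697 among all tested genes. A block for the scan day, which equals leaving out wild-type array 3, gave 5, and 322 among all tested genes. Both ranges hold few arrays. Within the lower range 0 members were called, and 16 of all tested genes. There 20 members and 2563 of 21112 tested genes had an unadjusted limma p under 0.05. The higher range, with p53-null array 2 alone, gave a median of 0.22, against 0.11 for all tested genes. With each slide as a fixed term, 0 members and 0 of all tested genes were called. At an unadjusted limma p under 0.05 were 9 members and 1139 of all tested genes. This fit compares only p53-null array 2 with wild-type array 4 and gave a median of 0.19, against 0.08 for all tested genes. With the replicate block there was 1 call, and 26 among all tested genes. In deviations from group means, same-numbered arrays correlated at -0.22 to 0.00 and no p53-null array matched its own number best. These correlations also carry other differences between arrays, so they cannot show whether the numbers pair the mice. Leaving out single arrays gave 5 to 24 calls and medians of 0.29 to 0.37: 24 without wild-type array 5, 9 without wild-type array 1, 7 without p53-null array 5, 6 without p53-null array 1 or wild-type array 2, and 5 without each other array. Among all tested genes calls ranged from 192 without p53-null array 3 to 6618 without wild-type array 5. Without p53-null arrays 4 and 5 and wild-type array 2, chosen for their muscle or squamous signal, member calls numbered 0 by limma, with a median of 0.35. Of all tested genes 10 were called. In that fit 21 members and 3480 of all tested genes had an unadjusted limma p under 0.05. Leaving out wild-type array 5 as well gave 14 member calls, and 3903 among all tested genes. Without wild-type array 5 alone there were 24 member calls, and 6618 among all tested genes. The cause was not tested. Over all alternatives the median ranged from 0.19 to 0.37. The number of arrays and signals near background, as for Oas1g, limit these results.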
